A study of Mus musculus with 82 samples.

Results

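The respiratory chain and the ATP synthase of the inner mitochondrial membrane were followed gene by gene across the mouse suprachiasmatic nucleus (SCN), the hypothalamic clock nucleus. Members were the protein-coding genes whose symbols name a subunit of complex I (Nduf and mt-Nd), complex II (Sdh), complex III (Uqcr, Cyc1 and mt-Cytb), complex IV (Cox4 to Cox8 and mt-Co) or complex V (Atp5 and mt-Atp). This choice went by symbol and gene type and was made with earlier results of these data known. It gave 97 of the 27515 genes in the count table, 84 encoded in the nucleus and 13 on the mitochondrial genome. The nuclear members comprised 37 genes of complex I, 4 of complex II, 9 of complex III, 18 of complex IV and 16 of complex V. Ndufa4 was counted under complex I by its symbol, although its protein is known as a subunit of complex IV.

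The series held 82 hexagonal pieces of SCN tissue, cut by laser on a grid from cresyl violet-stained sections of C57BL/6 mice aged 8 weeks and sequenced as bulk RNA after Smart-seq2 amplification. The labels give no treatment or mutation, and place each hexagon on 3 axes (medial-lateral, dorsal-ventral, anterior-posterior) by coordinates that carry neither unit nor orientation. The anterior-posterior coordinate took 9 values, from 47 to 431, and defined 9 sections with 4, 6, 12, 14, 12, 14, 13, 6 and 1 hexagons. Medial-lateral coordinates ran from 1100 to 1517 and dorsal-ventral coordinates from 301 to 917. No animal is named, so hexagons may share one, and every p-value computed over hexagons is then too small. Total counts ranged from 11905 to 2843366 per hexagon with a median of 542268, and 5 hexagons fell below that median divided by 3. The SCN is known as a nucleus of GABA neurons, and Gad1, which makes GABA, averaged 1068 CPM (counts scaled to a common library size) and was detected in 82 of 82 hexagons.

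Complex I takes electrons from NADH and complex II takes them from succinate, and both pass them through ubiquinone to complex III, which hands them by cytochrome c to complex IV and oxygen. Complexes I, III and IV pump protons, and complex V uses the proton gradient to make ATP. Every complex except complex II combines nuclear subunits with subunits encoded on mitochondrial DNA. Neurons are known to draw most of their ATP from this pathway.

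Typical levels per gene length of the nuclear subunits were taken over all members of each of the 5 complexes. The median over members of the mean deposited RPKM (reads scaled by gene length and library size) was 81.0 for complex I, 88.1 for complex II, 123 for complex III, 89.2 for complex IV and 80.5 for complex V. The nuclear member with the highest level in each complex was Ndufa1 with 298 ± 109 RPKM, Sdha with 106 ± 30.5, Uqcrb with 195 ± 240.4, Cox8a with 396 ± 115 and Atp5b with 252 ± 65.5 (SD, n = 82 each). Sdha is the flavoprotein of succinate dehydrogenase and Atp5b the catalytic β subunit of the ATP synthase. Each of the 88 members that passed the filter on low counts (10 or more counts in 10 or more hexagons) had counts in at least 67 of 82 hexagons. Of the 18 nuclear members of complex IV, 11 passed this filter. The others are isoforms near or at 0, which lower the complex IV median given above.

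Subunit isoforms known from muscle, testis, lung or low-oxygen responses were near or at 0. Cox8b and Cox8c had 0 counts in all 82 hexagons. Cox7b2 was detected in 7 hexagons, Ndufa4l2 in 13, Cox4i2 in 20, Cox6b2 in 23, Cox7a1 in 30 and Cox6a2 in 36, and the mean of each was at most 3.35 RPKM. Their widely expressed counterparts were abundant, with 377 ± 80.1 RPKM for Cox4i1 and 353.3 ± 105.1 for Cox6b1 (SD, n = 82). These 8 isoforms and mt-Atp8 were the 9 members not tested over hexagons.

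Levels of the 13 mitochondrially encoded members were spread over a wide range. The cytochrome c oxidase core subunit mt-Co1 reached 3492 ± 862 RPKM, mt-Nd1 2675 ± 1346, mt-Cytb 2541 ± 1112, mt-Nd5 1323 ± 585, mt-Nd4 1119 ± 685, mt-Nd2 1099 ± 1884 and mt-Nd6 627 ± 428 (SD, n = 82). The other 6 stood far lower, at 88.6 ± 198 for mt-Atp6, 67.8 ± 39.7 for mt-Co2, 50.3 ± 56.8 for mt-Co3, 33.6 ± 135 for mt-Atp8, 29.3 ± 19.0 for mt-Nd3 and 22.8 ± 32.9 for mt-Nd4l (SD, n = 82). Mammalian mitochondrial DNA is transcribed as long precursors that are cut into single RNAs. The 6 low genes lie next to each other on it, from mt-Co2 (chrM:7013-7696 in GRCm38) to mt-Nd4l (chrM:9877-10173).

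**Figure D1:**
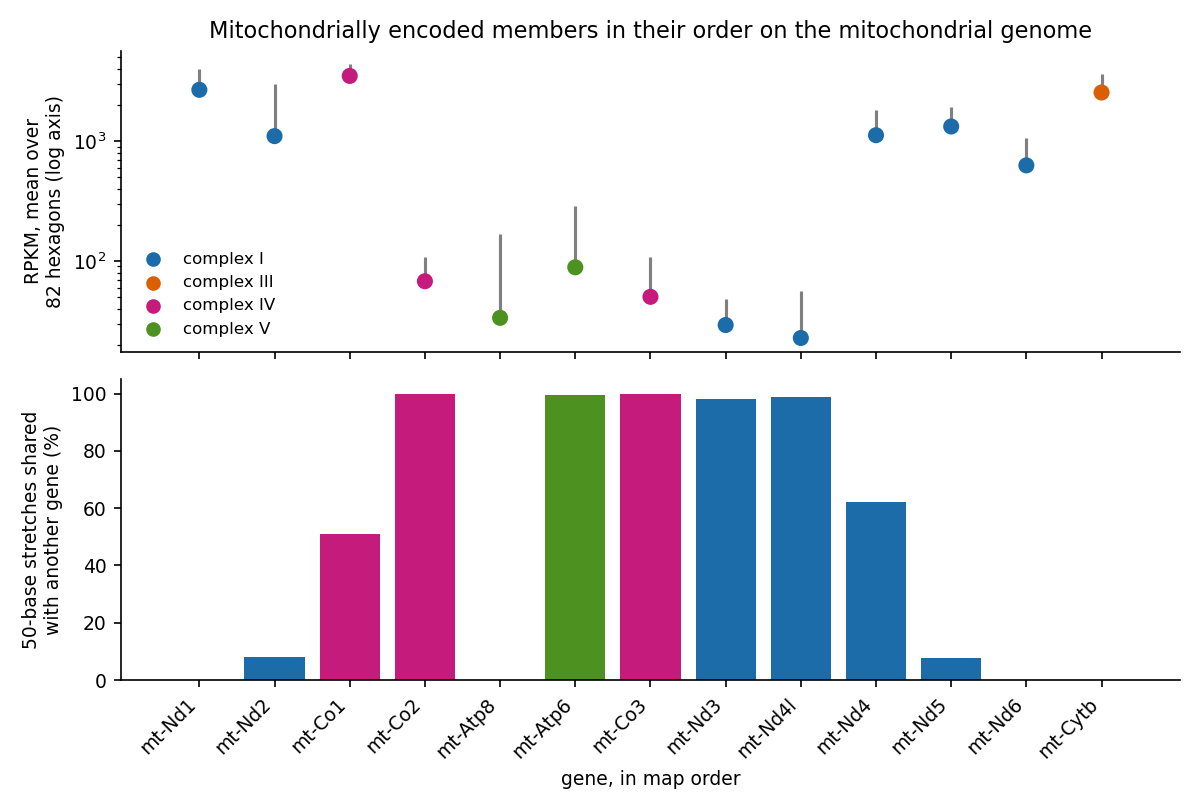
Mitochondrially encoded members in map order: upper panel, mean RPKM over 82 hexagons on a log axis with the upward line adding 1 SD; lower panel, percent of each transcript's 50-base stretches that occur in another annotated gene. The 6 genes from mt-Co2 to mt-Nd4l have means of at most 88.6 RPKM, and 5 of them share 98.0% or more of their 50-base stretches.

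The run of low genes matches a stretch of nuclear DNA. In the annotated transcripts of GRCm38, unprocessed pseudogenes on chromosome 1 between 24611535 and 24616197 repeat 7 mitochondrial genes between mt-Co1 and mt-Nd4. mt-Co2 shared 100% of its 50-base stretches with another annotated gene, mt-Co3 99.9%, mt-Atp6 99.5%, mt-Nd4l 98.8% and mt-Nd3 98.0%, and the copies of these 5 aligned with 0 mismatches. Among the high genes, mt-Nd4 shared 62.2%, mt-Co1 51.1%, mt-Nd2 8.19% and mt-Nd5 7.61%, and mt-Nd1, mt-Nd6 and mt-Cytb shared 0%. The low mt-Atp8 also shared 0% with annotated transcripts, which were all that was searched. How reads that align to more than 1 place were counted is not given in the sources used here, and the part of this sharing in the low values was not tested. The 61 bases printed next are shown because a read inside them reads the same in both genomes. They are transcript bases 271 to 331 of mt-Co2 and of mt-Co3 with their copies, all in lower case because no base differs.
mt-Co2, chrM:7283-7343, plus strand: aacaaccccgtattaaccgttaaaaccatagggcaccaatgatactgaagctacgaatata
Gm28661, chr1:24615235-24615295, minus strand: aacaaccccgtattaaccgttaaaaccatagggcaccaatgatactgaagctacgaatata
mt-Co3, chrM:8877-8937, plus strand: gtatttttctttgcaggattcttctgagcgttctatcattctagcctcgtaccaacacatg
Gm28437, chr1:24613641-24613701, minus strand: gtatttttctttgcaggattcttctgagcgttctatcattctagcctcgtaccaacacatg

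Along the medial-lateral axis, 18 of 88 tested members rose with the coordinate and none fell. The same call, an adjusted p under 0.05 with a positive slope in edgeR's quasi-likelihood test over all genes, was made for 94 of 11469 genes (0.820%). Slopes were positive for 85 of the 88 and for 5587 of the 11469 tested genes (48.7%). The median was 0.122 (log2 per 100 coordinate units) for members against -0.0044 for all tested genes. The 18 comprised 6 nuclear members of complex I, 6 of complex IV, 3 of complex V and the mitochondrially encoded mt-Co1, mt-Nd5 and mt-Cytb, and none of complex II or nuclear complex III. In bulk tissue, fewer cells of a type and less RNA per cell cannot be told apart. The 27 hexagons with the lowest coordinates (1100 to 1228) and the 27 with the highest (1348 to 1517) overlapped for all 88 members, and 81 of the 88 had the higher median at the high end. These groups were compared for members only, so no share over all genes stands beside either count. Slopes within sections were positive in 8 of 8 sections for 13 of the 18. Of the 18, 5 overlap an annotated gene on the other strand (29 of all 97 members do), and whether the counting used strand is not given in the sources used here.

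**Figure D2:**
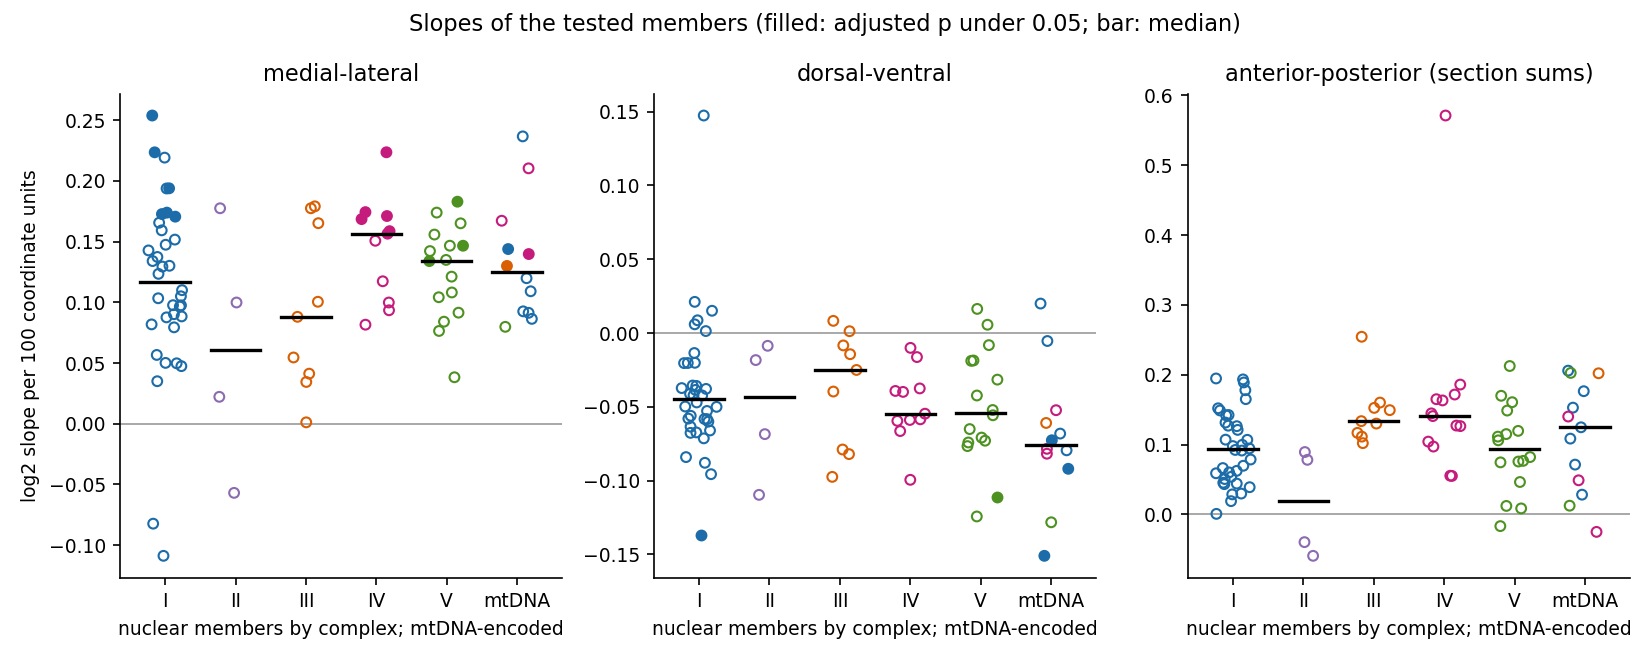
Slope of each tested member (log2 per 100 coordinate units) on the 3 axes, nuclear members by complex and mitochondrially encoded members together; filled points passed an adjusted p under 0.05 and bars are medians. Points above 0 number 85 of 88 on the medial-lateral axis, and points below 0 number 77 of 88 on the dorsal-ventral axis. Over all tested genes these shares were 48.7% and 48.5%.

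In complex I, the core subunit Ndufv2 and Ndufb3, Ndufb5, Ndufa4, Ndufa5 and Ndufb10 rose with the medial-lateral coordinate. Ndufb3 (chr1:58586384-58595964), an accessory subunit of the membrane arm, ran from 25.1 to 132 with a median of 89.8 CPM in the 27 low-coordinate hexagons and from 67.1 to 210.0 with a median of 112 in the 27 high-coordinate hexagons. The groups overlapped, and the slope was 0.25 ± 0.053 (SE, edgeR adjusted p = 0.0038), positive in 8 of 8 sections. Ndufv2, which carries an iron-sulphur cluster, had medians of 248 and 322 CPM (ranges 98.4 to 498 and 186 to 569), with a slope of 0.19 ± 0.042 (adjusted p = 0.005). Ndufb5 (chr3:32736990-32751566), also of the membrane arm, had medians of 104 and 140.1 CPM (58.5 to 204 and 49.5 to 289) and a slope of 0.22 ± 0.050 (adjusted p = 0.0072). Each of these was higher in the median at the high end, with overlapping groups. Slopes of Ndufa4, Ndufa5 and Ndufb10 were each 0.17, with adjusted p from 0.0071 to 0.049. Of 20 alternative settings, Ndufa5 lost its call in 11 and Ndufb10 in 12, against 3 for Ndufa4. The core subunit Ndufs1 had a slope of 0.098 ± 0.069 (adjusted p = 0.66), and the NADH-binding Ndufv1 0.15 ± 0.061 (adjusted p = 0.24). The nuclear complex I members with negative slopes were Ndufb2 (-0.11 ± 0.11, adjusted p = 0.81) and Ndufs4 (-0.082 ± 0.049, adjusted p = 0.55). The median over the 36 tested nuclear members of complex I was 0.117.

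Complexes II and III had the lower median slopes, 0.061 over 4 members and 0.088 over 9, and no nuclear member of either passed the test. Sdha ran from 0 to 739 with a median of 473 CPM in the low-coordinate and from 216 to 682 with a median of 435 in the high-coordinate hexagons, with a slope of 0.022 ± 0.049 (edgeR adjusted p = 0.92). The groups overlapped. The iron-sulphur subunit Sdhb had a slope of 0.100 ± 0.058 (adjusted p = 0.53), the membrane anchor Sdhd 0.18 ± 0.068 (adjusted p = 0.20) and the anchor Sdhc -0.057 ± 0.070 (adjusted p = 0.85). In complex III, cytochrome c1 (Cyc1) had a slope of 0.18 ± 0.053 (adjusted p = 0.068), the Rieske protein Uqcrfs1 0.034 ± 0.048 (adjusted p = 0.87), the core protein Uqcrc1 0.10 ± 0.057 (adjusted p = 0.52) and Uqcrb 0.088 ± 0.054 (adjusted p = 0.57). All 9 slopes of nuclear complex III members were positive.

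Complex IV had the highest median slope of the nuclear groups, 0.157 over 11 tested members, all of them positive. Cox4i1 (chr8:120668222-120674207), the largest nuclear subunit, ran from 131 to 777 with a median of 527 CPM in the low-coordinate hexagons and from 465 to 1056 with a median of 665 in the high-coordinate hexagons, with a slope of 0.16 ± 0.031 (edgeR adjusted p = 0.002). Cox5b (chr1:36691449-36693681) had medians of 167 and 216 CPM (0 to 225 and 87.1 to 384) and a slope of 0.22 ± 0.048 (adjusted p = 0.0043). Both genes overlapped between the groups and were higher in the median at the high end. The small subunits Cox7a2 (0.17 ± 0.037), Cox6b1 (0.17 ± 0.038), Cox6c (0.17 ± 0.042) and Cox7c (0.16 ± 0.041) also rose, with adjusted p between 0.0059 and 0.026. All 6 had a positive slope in 8 of 8 sections. Cox8a had a slope of 0.15 ± 0.044 (adjusted p = 0.056).

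In complex V all 16 nuclear members had positive slopes, with a median of 0.134, and 3 passed the test. The stalk subunit Atp5h, known as subunit d, ran from 197 to 482 with a median of 331 CPM in the low-coordinate and from 263 to 659 with a median of 414 in the high-coordinate hexagons, with a slope of 0.15 ± 0.034 (edgeR adjusted p = 0.0098). Atp5b had medians of 959 and 1096 CPM (164 to 1537 and 802 to 1987) and a slope of 0.13 ± 0.038 (adjusted p = 0.049). The ranges of both genes overlapped. Atp5g3, one of the genes for the c subunit of the rotor ring, had a slope of 0.18 ± 0.047 (adjusted p = 0.021), and its paralogs Atp5g1 and Atp5g2 had slopes of 0.17 ± 0.051 (adjusted p = 0.061) and 0.12 ± 0.050 (adjusted p = 0.26). The catalytic α subunit Atp5a1 had a slope of 0.10 ± 0.034 (adjusted p = 0.1). Atp5g2 shared 38.3% of its 50-base stretches with other annotated genes, so its counts are uncertain. The same limit applies to called members, where mt-Co1 shared 51.1%, Cox7c 22.1%, Atp5h 19.9%, Cox5b 11.9% and Ndufb5 11.2%. The remaining called members shared at most 8.37%.

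The mitochondrially encoded members had nearly the same median slope as the nuclear members, 0.125 over 12 against 0.122 over 76. mt-Co1 ran from 3916 to 6821 with a median of 4736 CPM in the low-coordinate hexagons and from 4137 to 9201 with a median of 5804 in the high-coordinate hexagons, with a slope of 0.14 ± 0.025 (edgeR adjusted p = 8.6e-04). mt-Nd5 had medians of 2070.4 and 2628 CPM and a slope of 0.14 ± 0.028 (adjusted p = 0.002), and mt-Cytb had medians of 2794 and 2834 and a slope of 0.13 ± 0.031 (adjusted p = 0.011). The ranges overlapped in all 3. Slopes of the other 9 lay between 0.080 (mt-Atp6) and 0.24 (mt-Nd4l). Among the low genes with a nuclear copy, mt-Co2 had a slope of 0.17 ± 0.067 (adjusted p = 0.24) and mt-Co3 0.21 ± 0.078 (adjusted p = 0.18). Without the 5 hexagons of low total count mt-Nd2 also rose, with a slope of 0.17 (adjusted p = 7.5e-04) against 0.086 ± 0.052 (adjusted p = 0.56) with them.

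**Figure D3:**
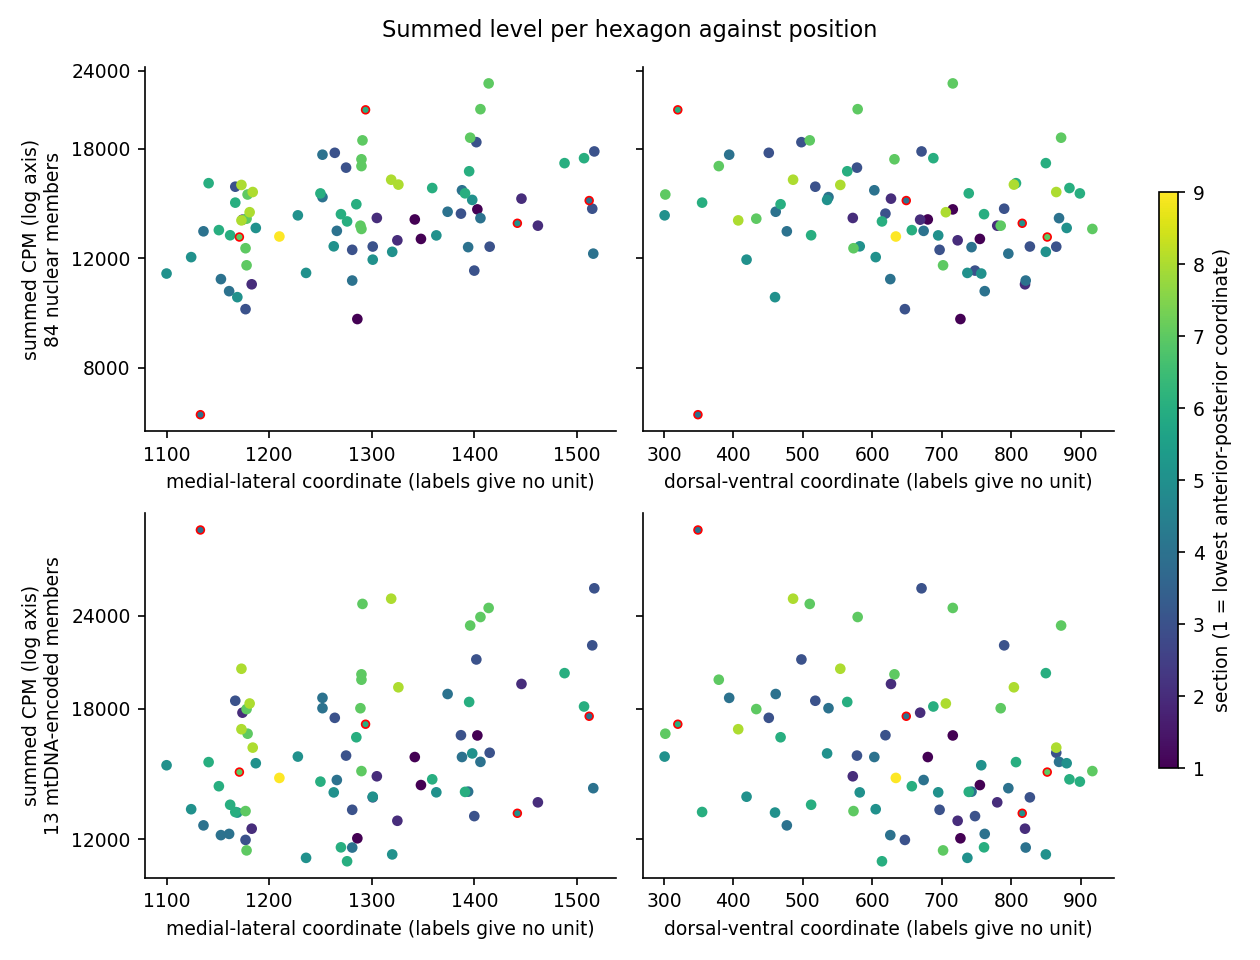
Summed CPM per hexagon (log axis) of the 84 nuclear members (upper row) and of the 13 mitochondrially encoded members (lower row) against the medial-lateral (left) and dorsal-ventral (right) coordinate; colour gives the section and red rims mark the 5 hexagons of low total count. The nuclear sum lies between 6726 and 22907 CPM, and the hexagon with the lowest nuclear sum has the highest mitochondrial sum (31334 CPM). That hexagon held 11905 counts, and before TMM scaling 1.72% of them came from nuclear members, against 1.36% in the median hexagon.

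Sums over members followed the same direction in nearly every section. The nuclear members together ran from 6726 to 15838 with a median of 13254 CPM in the 27 low-coordinate hexagons and from 11462 to 22907 with a median of 14852 in the 27 high-coordinate hexagons, so the groups overlapped with the higher median at the high end. The value of 6726 belonged to the hexagon with 11905 counts. The medial-lateral slope of the log2 nuclear sum was positive in 8 of 8 sections, from 0.060 in section 2 to 0.48 in section 1. That of the mitochondrial sum was positive in 7 of 8 sections, from -0.010 in section 5 to 0.38 in section 1. An edgeR test of whether slopes differed between sections, added after the values were seen, called 0 of 88 members (9 of 11440 genes, 0.0787%), with 14 members at an unadjusted p under 0.05.

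**Figure D4:**
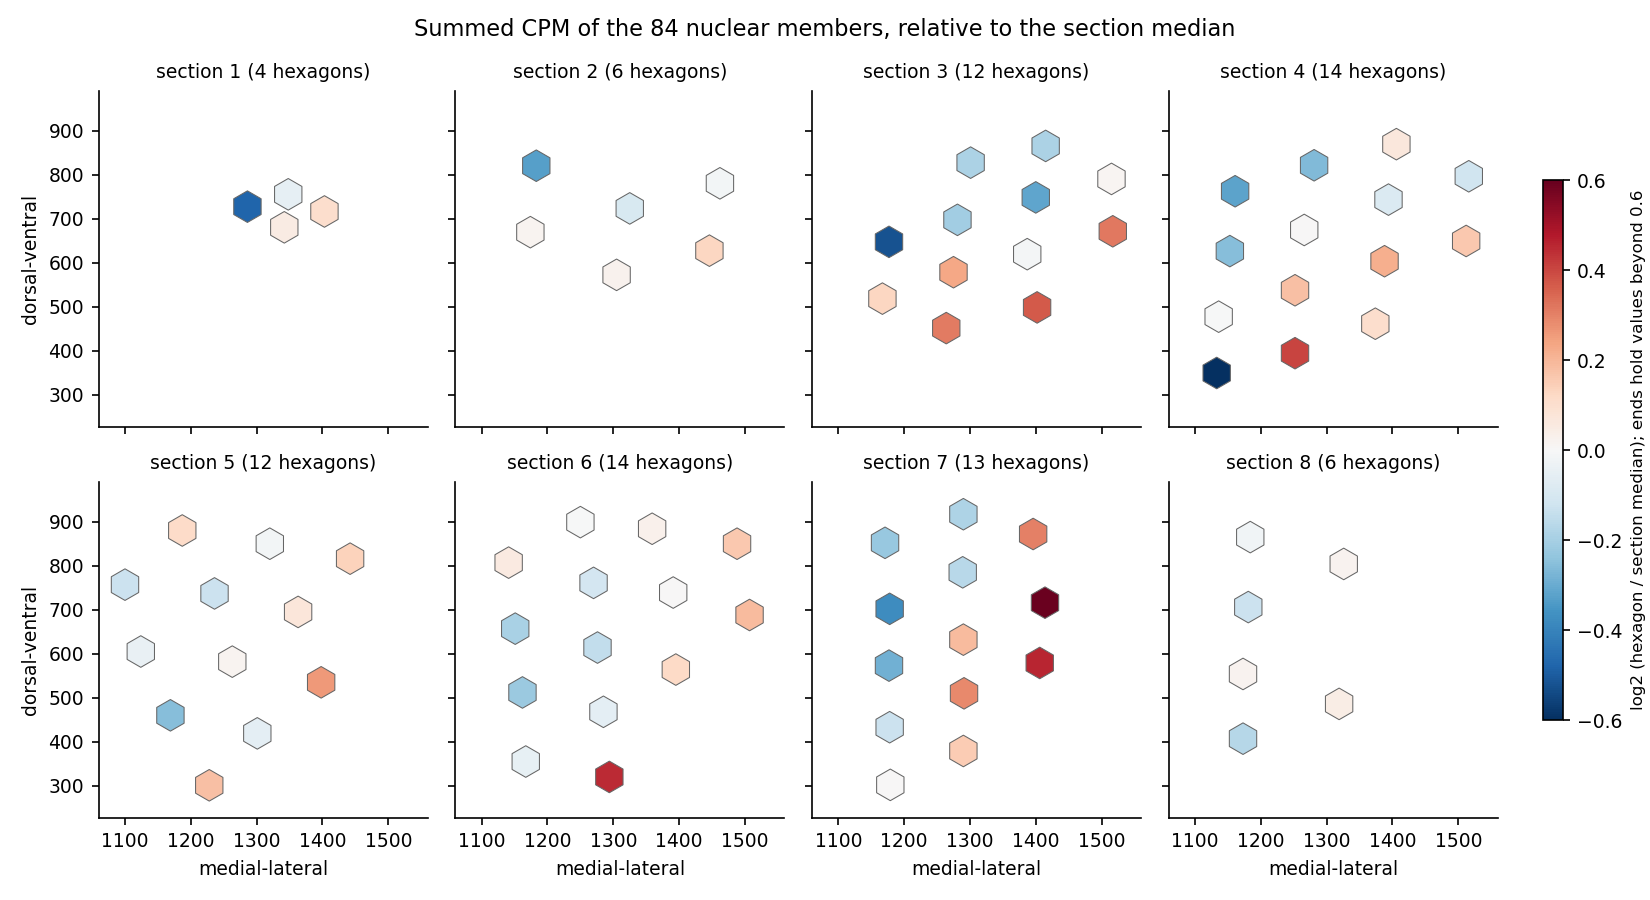
Maps of sections 1 to 8 at the labelled medial-lateral (x) and dorsal-ventral (y) coordinates, coloured by the log2 ratio of the nuclear members' summed CPM to the section median; colours end at 0.6 either way. In section 7 the 3 hexagons at the highest medial-lateral coordinates have the highest ratios of that section.

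The medial-lateral count rested on particular sections and on the letter that opens each hexagon's description label, whose meaning the labels do not state. Without section 7 it was 4 (31 of 10894 genes either way, 0.285%) and without section 6 it was 7 (72 of 11377 genes either way, 0.633%), against 158 genes called either way (1.38%) in the fit of all sections. With the letter in the model 1 member, mt-Nd5, rose (7 of 11469 genes, 0.0610%), while the median slopes were 0.134 for nuclear and 0.116 for mitochondrial members. Within single letters the nuclear sum had a positive medial-lateral slope in 7 of 8, and the mitochondrial sum in 6 of 8. Under letter E (9 hexagons) the slopes were -0.040 for the nuclear and -0.26 for the mitochondrial sum, and under letter D (12 hexagons) 0.054 and -0.057.

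Along the dorsal-ventral axis, 5 of 88 members fell with the coordinate and none rose. The same call in the falling direction was made for 33 of 11469 genes (0.288%). The 5 were mt-Nd5, mt-Nd2 and mt-Nd1, all mitochondrially encoded core subunits of complex I, with nuclear Ndufb5 and Atp5c1, the γ subunit that turns inside the ATP synthase. Slopes were negative for 77 of 88 members and for 5562 of 11469 tested genes (48.5%). Medians were -0.045 for nuclear and -0.076 for mitochondrial members against 0.0026 for all tested genes. By nuclear complex the medians were -0.045 for I, -0.043 for II, -0.025 for III, -0.055 for IV and -0.054 for V.

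mt-Nd5 ran from 1597 to 4265 with a median of 2466 CPM in the 27 hexagons with the lowest dorsal-ventral coordinates (301 to 578) and from 1574 to 3016 with a median of 2106 in the 27 with the highest (743 to 917), with a slope of -0.092 ± 0.019 (edgeR adjusted p = 0.0023). mt-Nd2 had medians of 1053 and 837 CPM (714.97 to 7218 and 573 to 1404) and a slope of -0.15 ± 0.035 (adjusted p = 0.0099). mt-Nd1 had medians of 2693 and 2305 CPM and a slope of -0.073 ± 0.019 (adjusted p = 0.043). These 3 overlapped between the ends and had negative slopes in 8 of 8 sections. Ndufb5 had medians of 161 and 99.1 CPM with a slope of -0.14 ± 0.034 (adjusted p = 0.022), and Atp5c1 (chr2:10056016-10080510) 365 and 271 CPM with a slope of -0.11 ± 0.030 (adjusted p = 0.046). Ndufb5 and mt-Nd5 were the members called on both axes, and both overlap an annotated gene on the other strand. The highest mt-Nd2 value belonged to the hexagon with 11905 counts, and without the 5 hexagons of low total count its slope was -0.076 (adjusted p = 0.065).

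Among members with a mean of 20 CPM or more, the largest positive slopes were those of Ndufb2 (0.15 ± 0.081, edgeR adjusted p = 0.68), Ndufs4 (0.021 ± 0.032, adjusted p = 0.98) and Atp5d (0.016 ± 0.036, adjusted p = 0.99). The slopes of mt-Atp6 (-0.13 ± 0.051, adjusted p = 0.36) and mt-Nd4 (-0.079 ± 0.022, adjusted p = 0.053) were negative and did not pass. The count of 5 stood beside 91 genes called either way. It became 2 without the 5 hexagons of low total count (85 genes), 3 without section 1 (84 genes) or section 2 (81 genes), 1 without section 3 (66 genes) or section 4 (55 genes), and 2 without section 6 (46 genes) or section 7 (69 genes). With the description letter in the model it was 1 (mt-Nd5; 21 of 11469 genes, 0.183%). The edgeR test of a difference in slope between sections called 0 of 88 members (14 of 11440 genes, 0.122%), with 8 members at an unadjusted p under 0.05.

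Along the anterior-posterior axis, counts were summed per section and fitted over the 8 sections with 4 or more hexagons. edgeR called 0 of 91 members (30 of 13268 genes in either direction, 0.226%), and 24 members had an unadjusted p under 0.05, as did 2075 of 13268 genes. DESeq2 called 1 member, mt-Cytb (adjusted p = 0.038), among 482 of 13268 genes either way, 3.63%. Slopes were positive for 87 of 91 members and for 6816 of 13268 tested genes (51.4%). Medians were 0.107 for nuclear and 0.125 for mitochondrial members against 0.0065 for all tested genes. By nuclear complex the medians were 0.093 for I, 0.019 for II, 0.134 for III, 0.141 for IV and 0.094 for V. The largest slopes among members with a mean of 20 CPM or more were those of Uqcrfs1 (0.25 ± 0.075, adjusted p = 0.14), Atp5d (0.21 ± 0.11, adjusted p = 0.38) and mt-Cytb (0.20 ± 0.054, adjusted p = 0.12). The smallest were those of Sdhb (-0.059 ± 0.072, adjusted p = 0.74), Sdhc (-0.040 ± 0.069, adjusted p = 0.83) and mt-Co3 (-0.025 ± 0.097, adjusted p = 0.93).

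**Figure D5:**
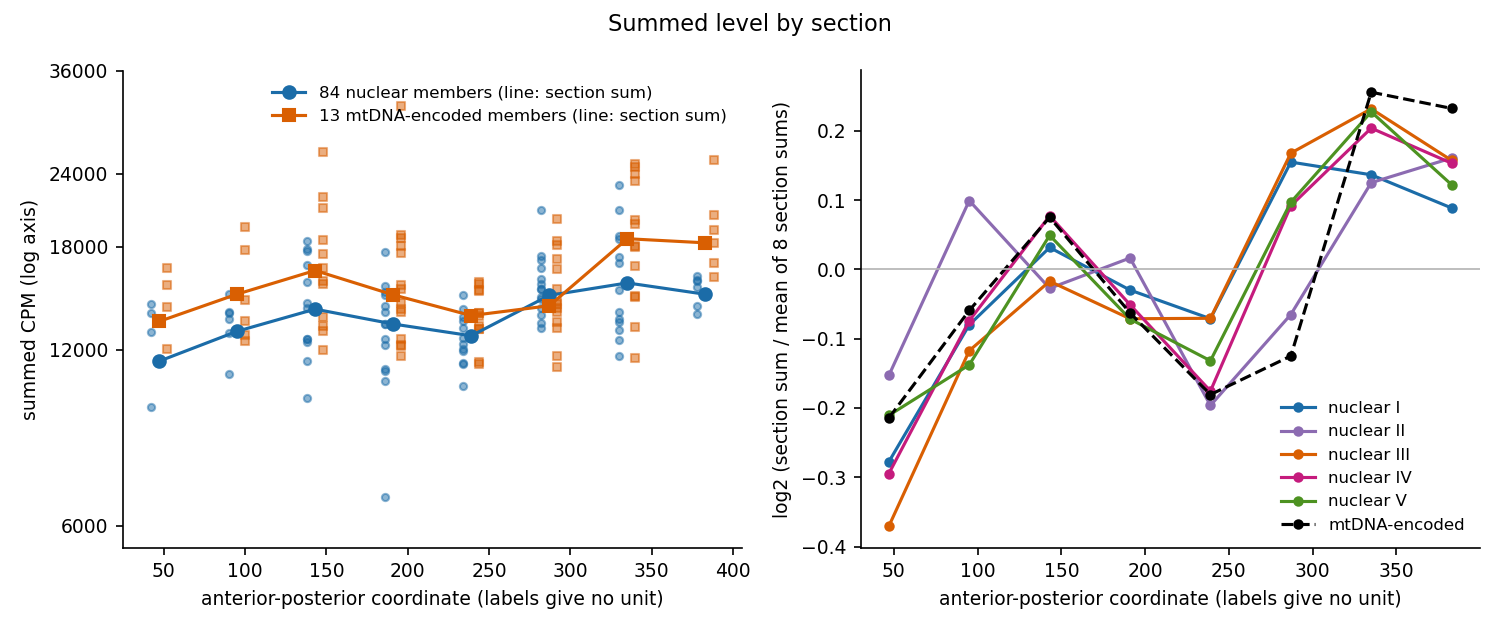
Left, summed CPM (log axis) of nuclear and mitochondrially encoded members in each hexagon (points) and in the section sums (lines) against the anterior-posterior coordinate. Right, the section sum of each nuclear complex and of the mitochondrially encoded members relative to its mean over 8 sections (log2). Section 1 is lowest for 5 of the 6 lines, with complex II lowest in section 5.

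The section sums did not form a straight line. The nuclear members summed to 11462 CPM in section 1, 12896 in section 2, 14073 in section 3, 13273 in section 4, 12672 in section 5, 14856 in section 6, 15603 in section 7 and 14920 in section 8. The mitochondrial members summed to 13405, 14926, 16384, 14889.9, 13722, 14262, 18568 and 18269 CPM in the same order. Both sums were lowest in section 1, dipped at section 5 and were highest in section 7. Section sums weight hexagons by their counts. Replicate 1 of section 1 held 948827 of the 2195782 counts of that section, with a nuclear sum of 9581 CPM. Medians over hexagons were lowest in section 5 instead, at 12412.5 CPM for nuclear and 13783 for mitochondrial members. In section 1 they were 13368 and 14840. Without 1 hexagon, replicate 1 of section 1, the median slopes were 0.061 for nuclear and 0.070 for mitochondrial members, and with the single hexagon of section 9 added they were 0.052 and 0.070. A fit over hexagons with the other coordinates in the model, which treats hexagons of a section as independent, called 14 of 88 members higher (205 of 11440 genes, 1.79%).

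The balance of the mitochondrial and nuclear transcripts was nearly level along the axes within sections. The log2 ratio of the mitochondrial to the nuclear sum ran from -0.295 to 2.22 with a median of 0.152 over 82 hexagons, and its slopes were -0.00074 ± 0.031 on the medial-lateral and -0.031 ± 0.020 on the dorsal-ventral axis (SE, no test). Section 6 had the lowest median ratio (from -0.295 to 0.236 with a median of -0.0716, n = 14) and section 8 the highest (from 0.0569 to 0.658 with a median of 0.326, n = 6), and their ranges overlapped. The highest ratio belonged to replicate 4 of section 4, the hexagon with 11905 counts and 2549 genes detected. In it 8.02% of counts came from the mitochondrial members, against 1.48% in the median hexagon. Nuclear members held 1.72% of its counts, against 1.36% in the median hexagon, so its low nuclear CPM depends on its TMM scaling. Without the 5 hexagons of low total count the slopes of the ratio were 0.036 ± 0.018 and -0.012 ± 0.012.

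Members varied together between hexagons of a section. After section means were removed, the log2 nuclear and mitochondrial sums had a correlation of r = 0.81 over 76 hexagons, a description in which the points share libraries and scaling. The median correlation of a pair of members was 0.59 between mitochondrially encoded members, 0.26 between nuclear members and 0.33 between the genomes, and 0.018 over pairs of all tested genes. Pairs of nuclear members within complex IV had a median of 0.45, within V 0.35, within I 0.24, within III 0.17 and within II -0.050. Paired with nuclear members of other complexes, the medians were 0.32 for IV, 0.30 for V, 0.26 for I, 0.21 for III and 0.16 for II. For I, II and III these were higher than within the complex, where I had 630 pairs, III 36 and II only 6. Only section means were removed, so the members' medial-lateral and dorsal-ventral slopes also enter these correlations. Both sums moved with the number of genes detected in a hexagon (r = -0.38 for nuclear and -0.46 for mitochondrial members), which itself had r = -0.24 with the medial-lateral and r = -0.21 with the dorsal-ventral coordinate. With the number of genes detected in the model, 28 members rose along the medial-lateral axis (188 of 11469 genes either way, 1.64%) and 6 fell along the dorsal-ventral axis (108 of 11469 genes either way, 0.942%).

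Other short genes had positive median slopes on the medial-lateral and anterior-posterior axes and a negative one on the dorsal-ventral axis. Among other genes under 1000 bases the median medial-lateral slope was 0.063 (190 genes), against 0.12 for the 18 nuclear members of that length. Among other genes of 4000 bases or more it was -0.018 (6909 genes), against 0.094 for 10 members. On the anterior-posterior axis the values under 1000 bases were 0.069 for other genes and 0.13 for members, and on the dorsal-ventral axis -0.015 and -0.048. The part of transcript length in the members' slopes was not tested.

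Promoters of the nuclear members were read for 4 motifs of factors known to control mitochondrial genes. RefSeq windows on GRCm38.p6, from 250 bases before to 50 after each start, matched 66 of 84 nuclear members, and both strands were searched. The NRF1 core GCGCATGC occurred in 10 of 66 members (15.2%) against 3.05% of 27025 genes, and the ETS motif CCGGAAG in 16 (24.2%) against 9.93%. The YY1 motif AAGATGGC occurred in 9 (13.6%) against 3.19%, and the ERR motif AAGGTCA in 8 (12.1%) against 5.38%. Of the 13 matched nuclear members that rose along the medial-lateral axis, 0 held the NRF1 core, 2 the ETS motif, 0 the YY1 motif and 1 the ERR motif. The 27025 genes include genes not expressed here, and no share over expressed genes was computed, so the higher shares are not shown to be particular to the members. A match describes letters in a window and is neither a binding site nor a cause. The windows printed next show the NRF1 core, because it is the motif with the highest share relative to all genes. It stands in capitals, in either orientation and merged where it overlaps itself, with 30 bases on each side. Of the 10 members with the core, the 6 shown had it and these flanks wholly inside the 250 bases before the start. For Atp5g2 that start was not matched to an annotated transcript of the gene. None of these 6 passed the test on any axis.
Ndufa11, chr17:56717672-56717741, plus strand: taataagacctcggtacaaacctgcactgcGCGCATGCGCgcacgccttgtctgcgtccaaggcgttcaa
Ndufa6, chr15:82354337-82354404, minus strand: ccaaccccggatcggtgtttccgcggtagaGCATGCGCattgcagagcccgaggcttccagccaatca
Sdhb, chr4:140961187-140961254, plus strand: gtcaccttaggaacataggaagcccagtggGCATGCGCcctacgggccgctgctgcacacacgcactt
Cox6a1, chr5:115349081-115349150, minus strand: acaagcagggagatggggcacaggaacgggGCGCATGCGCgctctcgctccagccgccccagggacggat
Atp5g2, chr15:102671050-102671119, minus strand: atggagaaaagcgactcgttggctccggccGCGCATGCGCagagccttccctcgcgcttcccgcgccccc
Atp5k, chr5:108434410-108434479, minus strand: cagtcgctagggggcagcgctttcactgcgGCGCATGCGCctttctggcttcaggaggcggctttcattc

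Pathways next to the respiratory chain held 1 call in all, on the medial-lateral axis. Calls either way on that axis covered 158 of 11469 tested genes (1.38%), and 48.7% of tested genes had positive slopes. Of 18 enzymes of the tricarboxylic acid cycle and its entry, 16 had positive medial-lateral slopes (median 0.11) and 0 were called, with citrate synthase (Cs) at 0.11 ± 0.050, adjusted p = 0.35 by edgeR. Of 39 tested assembly factors 27 were positive (median 0.056) and 0 were called. Of 9 electron carriers, adenine nucleotide and phosphate carriers and porins 8 were positive (median 0.069) and 0 were called. Glycolysis genes had 14 of 16 positive slopes (median 0.087) and 1 call, lactate dehydrogenase Ldhb, which rose (0.14 ± 0.037, adjusted p = 0.036). Regulators of mitochondrial transcription and biogenesis had 10 of 16 negative slopes (median -0.062) and 0 calls, and the coactivator Ppargc1a had a slope of -0.064 ± 0.13, adjusted p = 0.92. On the dorsal-ventral and anterior-posterior axes no gene of these 5 lists was called.

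Single markers of neurons, astrocytes, meningeal fibroblasts and erythrocytes passed the test on one axis or another. Over all tested genes, calls either way were 1.38% on the medial-lateral, 0.793% on the dorsal-ventral and 0.226% on the anterior-posterior axis. On the medial-lateral axis 7 of 9 neuron markers had positive slopes (median 0.12), of which Syt1 rose (0.40 ± 0.084, adjusted p = 0.0046 by edgeR) and fell along the dorsal-ventral axis (-0.36 ± 0.057, adjusted p = 4.9e-05). All 10 astrocyte markers (median 0.10; S100b rose, 0.27 ± 0.075, adjusted p = 0.042) and all 9 oligodendrocyte markers (median 0.16; 0 called) were positive. Of 7 endothelial and mural markers 5 were negative (median -0.28; 0 called), and the meningeal fibroblast markers Dcn (-1.87 ± 0.41, adjusted p = 0.0061) and Slc6a13 (-2.01 ± 0.32, adjusted p = 1.3e-04) fell. On the dorsal-ventral axis, where most members had negative slopes, 7 of 9 neuron markers were negative (median -0.0081), while all 9 oligodendrocyte markers (median 0.12; 0 called), 7 of 10 astrocyte markers (median 0.052; 0 called) and all 5 erythrocyte markers (median 0.85) were positive. The haemoglobin gene Hbb-bt rose on that axis (1.23 ± 0.29, adjusted p = 0.013). On the anterior-posterior axis all 9 oligodendrocyte markers were positive (median 0.37; 0 called), as were 8 of 10 astrocyte markers (median 0.078), of which the water channel gene Aqp4 rose (0.51 ± 0.095, adjusted p = 0.047).

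Summed neuron markers had medians of 4078 (1772 to 6264) CPM in the low-coordinate and 4694 (2813 to 7259.7) in the high-coordinate hexagons, with ranges in parentheses. Summed astrocyte markers had medians of 4078 (1444 to 6577) and 4879 (2667 to 8613) CPM, and summed oligodendrocyte markers 1379 (0 to 8576) and 2122 (366 to 23721). These 3 sums were higher in the median at the high end, with overlapping ranges. Endothelial and mural markers had medians of 229.9 (0 to 2365) and 157 (3.27 to 1023) CPM, and microglial markers 171 (13.4 to 518) and 106 (3.89 to 594). The microglial sum had its lowest median, 56.7 CPM, in the middle hexagons. Medial-lateral slopes were positive for 4 of 6 microglial markers and negative for 2 (median 0.073, 0 called). Meningeal fibroblast markers had 11.3 (0 to 689.6) and 6.19 (0 to 64.0) CPM, and ependymal and tanycyte markers 12.01 (0 to 52.3) and 7.91 (0 to 42.5). No listed marker was at 0 in all hexagons. The part of cell type composition in the members' slopes was not tested.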

How the data were processed

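RNA was measured in 82 hexagons. The authors deposited raw read counts per gene and RPKM values, per the file headers, and per the submitters' processing notes the tools were STAR and bcl2fastq 2 with the build GRCm38. For the counter, its annotation, its strand setting and multiply aligned reads, nothing is stated (not given in the sources used here). Members were matched by symbol in the RPKM table and joined to the counts by gene identifier.

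Slopes were fitted on the counts with edgeR 4.0.16 (TMM scaling, quasi-likelihood test, Benjamini-Hochberg adjustment over all tested genes, R 4.3.3). The dorsal-ventral and medial-lateral coordinates entered together with section as a factor, over all 82 hexagons, with 10 or more counts required in 10 or more hexagons. The anterior-posterior coordinate was fitted on section sums. CPM are counts over the TMM-scaled library size. Alternatives used DESeq2 1.42.0 and limma 3.58.1 on log2(RPKM + 1). Scripts were tested on simulated data.

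The members and lists were chosen with earlier results of these data known. Members were named when called on an axis, among the 3 largest or smallest slopes of an axis with a mean of 20 CPM or more, mitochondrially encoded, highest in their complex, a listed core subunit, or a low isoform. Sdhd, Atp5g1, Atp5g2, the promoter examples and the named genes of other pathways were chosen after their values were seen, as were the sequence-sharing, motif, length and correlation summaries. Counting error is limited by total counts, and p-values measure spread between hexagons that may share an animal.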

Additional observations from a re-analysis of the deposited data

How the results depend on the processing

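No paired analysis was possible because the labels give no replicate numbers and the numbers used here follow accession order. The medial-lateral count of 18 members was 32 with DESeq2, 28 with the number of genes detected as a covariate, 7 without section 6, 4 without section 7 and 1 with the description letter. Without a filter on low counts 26 members rose and 1 fell, Ndufa4l2, which was detected in 13 hexagons and was not among the 88. The dorsal-ventral count of 5 was 8 without TMM scaling, 8 without a filter on low counts, 2 without the hexagons of low total count, 3 without section 1, 3 without section 2, 1 without section 3, 1 without section 4, 2 without section 6, 2 without section 7 and 1 with the description letter. The anterior-posterior count of 0 was 1 with DESeq2 and 14 over hexagons. Leaving out each hexagon of section 1 gave 15 to 18, 4 to 5 and 0 to 0 members on the medial-lateral, dorsal-ventral and anterior-posterior axes. The cause of these changes was not tested. Over all genes, calls either way went from 158 to 345 (medial-lateral) and from 30 to 482 (anterior-posterior) with DESeq2, from 158 to 14 with the description letter, and from 91 to 799 of 21396 genes (dorsal-ventral) and from 158 to 912 (medial-lateral) without a filter. Without section 7 the medial-lateral calls over all genes were 31, and with section 9 added the anterior-posterior calls were 1. The median slope of mitochondrially encoded minus nuclear members was 0.0026, -0.031 and 0.018 on the medial-lateral, dorsal-ventral and anterior-posterior axes. Under the alternatives run it moved by less than 0.0996, 0.130 and 0.0511. On the first 2 axes that bound was the SD of the difference over fits within each of 8 sections. On the anterior-posterior axis it was a jackknife standard error over fits leaving out 1 section at a time. Those fits were also among the alternatives, so staying within that bound was nearly fixed in advance for them. Each bound is wider than the difference itself, so staying within it does not show a stable difference. The difference changed sign on 2 axes. On the medial-lateral axis it was -0.018 without TMM, -0.018 with the letter, -0.036 with limma, -0.016 without section 3 and between -0.0066 and -0.00024 under other settings with a negative value. On the anterior-posterior axis it was -0.024 without section 8 and -0.011 over hexagons. No called member changed direction under the alternatives run. Called medial-lateral members lost their call in 1 (Cox4i1, Ndufb3, mt-Co1) to 12 (Ndufb10) of 20 alternatives. Called dorsal-ventral members lost it in 1 (mt-Nd5) to 9 (mt-Nd1 and Atp5c1) of 20. The hexagon with 11905 counts limits what it can show for members of low level.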
